A study of Mus musculus with 6 samples.

Results

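The genes described here are 49 genes of DNA replication and S phase, taken by symbol from a list of genes grouped by function, which was drawn up with earlier results of these data known. All 49 were found among the 23420 genes of the deposited count table, and all 49 passed the filter on low counts of the edgeR test. RNA came from the lens transition zone of mouse embryos at stage E14.5, with 3 control and 3 mutant libraries. Control embryos carried the Le-Cre transgene alone, in which Pax6 regulatory sequence drives Cre recombinase in the surface ectoderm that gives rise to the lens. Mutant embryos carried Le-Cre with Etv4-/-, a loss of Etv4 in every cell, and with Etv5fl/fl and Etv1 fl/fl, which are removed only where Cre has acted. Both groups therefore carried Cre and had a mixed strain background. Etv1, Etv4 and Etv5 make up the Pea3 subfamily of ETS factors, known effectors of fibroblast growth factor signalling. The comparison asks how replication genes stood in this zone when the Pea3 factors were lost.

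Before a cell copies its DNA, the origin recognition complex, Cdc6 and Cdt1 load the Mcm2 to Mcm7 ring on origins, and Cdc45 and the GINS complex turn that ring into an active helicase. Polymerases, the sliding clamp and its loader, and enzymes that make deoxynucleotides then carry the fork, while E2F transcription factors and E-type cyclins switch most of these genes on together at the end of G1. In the lens, cells of the front epithelium divide and cells that enter the transition zone stop dividing as they elongate into fibres. Replication genes therefore mark the part of this tissue that is still cycling.

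Library totals lay between 13364742 and 17301168 counts. Values below are normalized CPM (counts scaled to library size with TMM factors), listed for libraries 1, 2 and 3 in that order unless said otherwise. The labels do not say whether libraries came from separate embryos, and p-values can speak only to the spread among the 6 libraries. Crystallins, the structural proteins of fibre cells, took 37.6%, 30.2% and 21.8% of counts in control libraries and 21.7%, 32.2% and 19.5% in mutant libraries. Defining lens markers were abundant: the crystallin gene Cryaa lay between 90400 and 193500 CPM. Of 10 retina and pigment epithelium markers 4 (Six6, Crx, Tyr and Rpe65) had no count in any library. Krt12 of the cornea was the only such gene among 7 surface ectoderm and cornea markers. The other markers of both lists had counts: Mitf lay between 1.69 and 7.70 CPM, and Krt5 and Krt15 reached 2.67 and 3.71 CPM in mutant library 3. In sex, mutant library 1 stood apart: Xist had 711 counts there and Ddx3y 2, while Ddx3y had at least 521 in each of the others. Etv1 was lower in the mutant libraries (29.0, 21.6 and 28.9 CPM against 45.4, 56.1 and 70.7 CPM in controls; log2 fold change -1.11 ± 0.21 (SE), edgeR adjusted p = 0.0319), and this call held only without control library 1 or mutant library 2 among the fits with 1 library left out, and was lost with the replicate block (0.0824). Etv5 stood at 245.5, 176.8 and 168.2 CPM in control and 116.2, 111.2 and 82.9 CPM in mutant libraries (-0.93 ± 0.19 (SE); edgeR adjusted p = 0.0503), and Etv4 at 2.92, 2.13 and 3.22 CPM and 4.92, 3.71 and 4.197 CPM (0.64 ± 0.36 (SE); 0.427). Reads from undeleted exons count toward a gene, so these levels are a weak check of genotype.

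Nearly all of the 49 members had a positive log2 fold change in the mutant group, while a single member passed the test. The log2 fold change was above 0 for 48 of the 49 members, against 50.2% of all 12257 tested genes, and its median was 0.997, a 2-fold difference, against 0.00176 over all tested genes. In edgeR's quasi-likelihood test 1 member, Mcm2, rose past a Benjamini-Hochberg adjusted p of 0.05, where 1.14% of all tested genes were called higher. At an unadjusted p under 0.05 there were 30 higher members, against 7.92% of all tested genes. All 3 mutant libraries lay above all 3 control libraries for 18 members, against 11.4% of all tested genes. Other tests of the same counts called more members: DESeq2 called 12 (3.27% of all genes it tested were called higher) and limma voom with quality weights called 12 (3.2%). The authors' deposited table gives 11 members past an adjusted p of 0.05, where 2.97% of its genes with an adjusted p are higher and past it. No member was called lower in any of these. In bulk tissue, a different number of cycling cells and a different amount of replication RNA per cycling cell cannot be told apart.

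**Figure D1:**
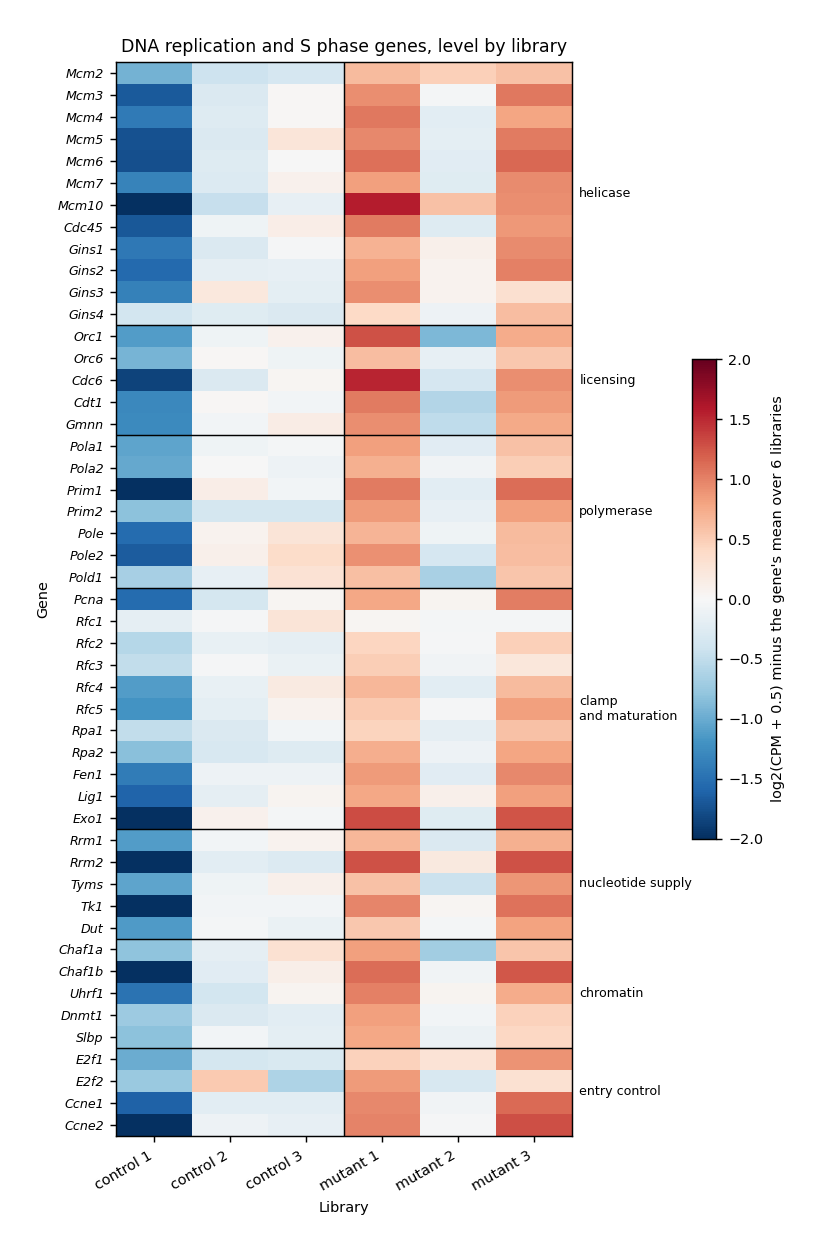
Level of each of the 49 genes in each library, as log2(CPM + 0.5) minus that gene's mean over the 6 libraries; genes are ordered by role, the vertical line parts control from mutant libraries, and colours saturate at a difference of 2. Control 1 is the lowest of the 6 libraries for all 49 genes, mutants 1 and 3 are the high columns, and mutant 2 resembles controls 2 and 3.

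The members moved between libraries almost as a block. Control library 1 was the lowest of the 6 for 49 of 49 members, with a median log2 difference of -1.27 from the mean of control libraries 2 and 3. Mutant library 2 was the lowest mutant library for 48 of 49, with a median of -0.93 from the mean of mutant libraries 1 and 3. Over all tested genes the same differences had medians of -0.00862 and 0.0121. The highest library of all was mutant 1 for 24 members and mutant 3 for another 24, and control 3 for Rfc1 alone. Summed over the 49 genes, the level was 1046, 1981 and 2208 CPM in control and 3952, 2218 and 3943 CPM in mutant libraries. Mutant library 2 was close to control libraries 2 and 3: its median difference from the mean of controls 2 and 3 was -0.0175 on the log2 scale. For 31 members its value fell inside the range of the controls, and for 18 above it. Control library 1 set the low end of that range for all 49 members, so the range was wide. The share of all tested genes inside the range was not counted. Mutant libraries 1 and 3 both exceeded every control for 47 of 49 members, which held for 21.3% of all tested genes. These libraries were singled out after their values were seen, and with all 3 mutant libraries the count was 18 of 49 (11.4% of all tested genes).

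Leaving out single libraries moved the calls. Standard errors of the 49 log2 fold changes ran from 0.145 to 0.668. Without mutant library 2, edgeR called 8 members (Mcm2, E2f1, Gins4, Prim2, Rfc2, Rpa1, Rpa2 and Dnmt1), where 1.68% of all tested genes were called higher, and the median log2 fold change was 1.22. Without control library 1 it called 1 member, where 1% of all tested genes were called higher, and the median was 0.69. Leaving out control library 2, mutant library 1 or mutant library 3 left 0 members called by edgeR. In those fits 25, 11 and 9 members had an unadjusted p under 0.05 with a higher level, against 6.3%, 5.73% and 5.35% of all tested genes. Without mutant library 1, the library of the other sex, 48 of 49 members still had a positive log2 fold change, with a median of 0.81.

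The members were low in the libraries where crystallins were high. Within each group, the crystallin share was highest in control library 1 and mutant library 2. With that share as a covariate in edgeR the median log2 fold change of the members was 0.55, 47 of 49 stayed above 0 and 6 were called (Mcm2, Mcm3, E2f1, Pcna, Rpa2 and Uhrf1), where 2.99% of all tested genes were called higher. All 16 crystallins had log2 fold changes below 0, and whether the share itself depended on genotype was not tested. In a pair of libraries with near shares, mutant 1 (21.7%) against control 3 (21.8%), 48 of 49 members were higher in the mutant library, by a median of 0.90 on the log2 scale. Over all tested genes 50.4% were higher, with a median of 0.00285. This pair also differs in sex, as mutant library 1 is the library of the other sex. In another such pair, mutant 2 (32.2%) against control 2 (30.2%), 26 of 49 were higher and the median difference was 0.0254. Over all tested genes 49.2% were higher there, with a median of -0.00644. The pairs were chosen after their shares were seen, and single libraries give no test.

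Promoter sequence is shown because many S phase genes are known E2F targets and the members moved together across libraries. RefSeq promoter windows of build GRCm38.p6, each of 250 bases before and 50 after a start site, were matched by symbol for 39 of the 49 members. The E2F octamers searched on both strands were TTTGGCGC, TTTCCCGC, TTTCGCGC and TTTGCCGC, which can overlap one another. At least 1 of them was present for 16 of 39 members (41%), against 2.6% of all 27025 genes with a window and 4.87% of the 9182 tested genes with one. In the 250 upstream bases alone the figures were 10 of 39 (25.6%), 2.16% and 4.06%. Below are the upstream 250 bases of the 3 members of lowest p with an octamer there, Dnmt1 (chr9:20952624-20952873, minus strand, 1 of its 3 windows), Uhrf1 (chr17:56304063-56304312, plus strand, 1 of its pair of windows) and Mcm6 (chr1:128359706-128359955, minus strand), and of Mcm2 (chr6:88898781-88899030, minus strand), which has none. Each is printed 5′ to 3′ on the gene's strand and ends just before the start site of the window shown, with octamers in capitals. Dnmt1 and Uhrf1 have further windows, so upstream refers here only to the start site of the window shown. Bases printed for these genes, octamers among them, may be transcribed from another start site of the same gene.
Dnmt1: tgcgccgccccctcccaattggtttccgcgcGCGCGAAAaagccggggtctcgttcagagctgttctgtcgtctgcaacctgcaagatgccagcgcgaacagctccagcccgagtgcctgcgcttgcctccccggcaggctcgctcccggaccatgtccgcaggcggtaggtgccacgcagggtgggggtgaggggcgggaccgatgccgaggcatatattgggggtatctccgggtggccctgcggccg
Uhrf1: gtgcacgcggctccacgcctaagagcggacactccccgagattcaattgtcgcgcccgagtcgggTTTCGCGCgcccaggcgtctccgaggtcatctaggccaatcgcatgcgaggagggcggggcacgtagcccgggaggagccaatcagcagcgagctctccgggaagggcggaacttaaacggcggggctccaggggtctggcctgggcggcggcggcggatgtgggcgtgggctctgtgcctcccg
Mcm6: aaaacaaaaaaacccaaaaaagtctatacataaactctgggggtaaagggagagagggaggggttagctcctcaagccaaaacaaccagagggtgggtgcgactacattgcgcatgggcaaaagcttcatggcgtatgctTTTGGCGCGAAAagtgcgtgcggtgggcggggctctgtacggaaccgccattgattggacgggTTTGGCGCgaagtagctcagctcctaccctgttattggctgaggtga
Mcm2: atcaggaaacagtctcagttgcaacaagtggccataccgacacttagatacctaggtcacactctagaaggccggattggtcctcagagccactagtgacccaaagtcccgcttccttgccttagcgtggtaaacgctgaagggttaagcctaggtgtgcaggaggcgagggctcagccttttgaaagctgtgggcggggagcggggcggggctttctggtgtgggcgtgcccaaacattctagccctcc
The capitals in Dnmt1 are TTTCGCGC read on the opposite strand. In Mcm6 the longer run of capitals is a TTTGGCGC that overlaps a TTTCGCGC of the opposite strand, and a further TTTGGCGC stands closer to the start site. Mcm2 was the called member and has none of these letters in its window.

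The octamer did not part the members by size of change: the median log2 fold change was 0.97 for the 16 with one and 0.98 for the 23 without. The CCAAT box (CCAAT) was present for 24 of 39 members (61.5%), against 41.1% of all genes and 43.3% of tested genes. The CHR element (TTTGAA), known from genes of G2 and M phase, was present for 6 (15.4%), against 20.2% of all genes and 13.8% of tested genes. The ETS octamers CCGGAAGT and CAGGAAGT, the core that Pea3 factors recognise, were present for 6 members (15.4%), against 7.97% of all genes and 12.9% of tested genes. Those 6 were Mcm10, Gins3, Rfc3, Rfc4, Rpa2 and Tyms, with a median log2 fold change of 0.79 against 1.01 for the other 33. A match of letters describes the window and is no measure of binding.

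Helicase genes gave the called member. All 12 had log2 fold changes above 0, with a median of 1.10, and 5 had mutant libraries all above control libraries, against 11.4% of all tested genes. Mcm2, a subunit of the ring that opens DNA at the fork, stood at 128.8, 186.5 and 195.9 CPM in control and 384.4, 344.9 and 370.1 CPM in mutant libraries. Mutant library 2 was thus close to the other mutant libraries for Mcm2, unlike for most members, and the groups were clearly apart, with the lowest mutant value 1.76 times the highest control value. The means were 170.4 ± 36.4 and 366.5 ± 20.0 CPM (SD, n = 3), which gave 1.10 ± 0.17 (SE) as log2 fold change and an adjusted p of 0.0155 in edgeR. This call was lost without control library 2 (1.17; adjusted p = 0.0708), mutant library 1 (1.07; 0.0841) or mutant library 3 (1.10; 0.0872), and with the replicate number as a block (1.13; 0.0688). None of the 10 nearest tested genes around Mcm2 in gene order was called by edgeR, and their log2 fold changes lay between -0.59 and 0.08.

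The other 5 subunits of the ring had log2 fold changes between 0.997 (Mcm7) and 1.30 (Mcm6) without passing, with 1.21 for Mcm3, 1.07 for Mcm4 and 1.10 for Mcm5. Mcm6, for example, stood at 23.7, 68.2 and 81.0 CPM in control and 175.6, 69.4 and 181.6 CPM in mutant libraries, so mutant library 2 lay among the controls. The SE of Mcm2 was 0.17 and those of Mcm3 to Mcm7 lay between 0.41 and 0.51. Mcm10, which helps to activate the loaded helicase, had the largest log2 fold change of all members, 1.88 ± 0.57 (SE; edgeR adjusted p = 0.165). Its values were 2.09, 9.90 and 12.3 CPM in control and 42.1, 21.1 and 27.0 CPM in mutant libraries, with no overlap. DESeq2 and limma voom both called it (adjusted p = 0.00549 and 0.0279).

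Cdc45 and the GINS subunits complete the active helicase. Gins4 stood at 45.2, 49.1 and 47.6 CPM in control and 77.1, 54.8 and 89.7 CPM in mutant libraries, with 0.64 ± 0.19 (SE) as log2 fold change (edgeR adjusted p = 0.133). Its control libraries were nearly level, so control library 1 did not stand low for Gins4 as it did for its partners. Gins1, Gins2 and Gins3 had log2 fold changes of 1.14, 1.2 and 0.86, and Cdc45 one of 1.02, none past the threshold in edgeR. Gins2 passed in DESeq2 (adjusted p = 0.0318), and its deposited value in the authors' deposited table is a log2 fold change of 1.14 with an adjusted p of 0.0309.

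Summed over the genes of origin licensing, the level was 44.6, 100.1 and 101.7 CPM in control and 196.7, 79.9 and 168.0 CPM in mutant libraries, with mutant library 2 below control libraries 2 and 3. All 5 members had log2 fold changes above 0, with a median of 0.94, but none had groups that were apart. Cdc6, which loads the ring on origins, stood at 2.99, 9.90 and 12.5 CPM in control and 35.7, 9.48 and 23.7 CPM in mutant libraries (log2 fold change 1.44 ± 0.60 (SE); edgeR adjusted p = 0.295). Orc6, a subunit of the origin recognition complex, stood at 24.7, 48.2 and 44.6 CPM in control and 73.3, 42.2 and 69.0 CPM in mutant libraries (0.65 ± 0.29 (SE); edgeR adjusted p = 0.327). In both genes mutant library 2 lay below control libraries 2 and 3 while the other mutant libraries lay above every control. Orc1, Cdt1 and Gmnn, the last of which encodes geminin, the inhibitor of Cdt1, had log2 fold changes of 1.01, 0.94 and 0.81. The largest drops of mutant library 2 below the mean of mutant libraries 1 and 3 among all members were those of Orc1, Cdc6 and Cdt1, at -1.91, -1.57 and -1.53 on the log2 scale.

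**Figure D2:**
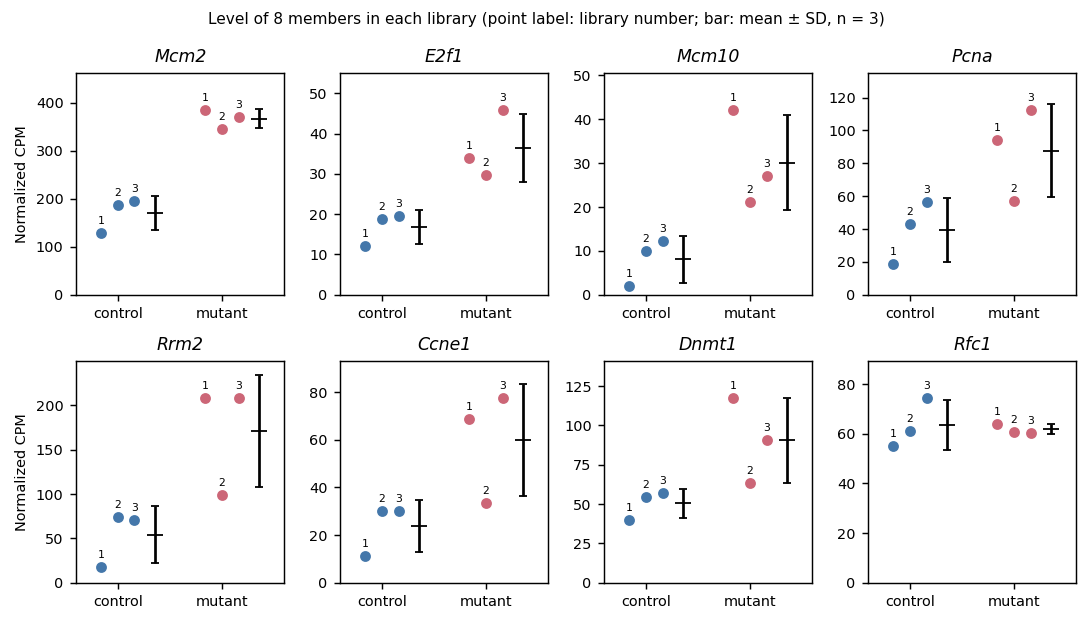
Normalized CPM of 8 members in each library (points, labelled with the library number), with the mean and SD of each group of 3 (bar). Mcm2 and E2f1 show groups that are well apart, and Rfc1 lies between 55.0 and 74.4 CPM in all 6 libraries. For Rrm2 and Ccne1, mutant library 2 lies above the controls but closer to them than to the other mutant libraries.

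Genes of the replicative polymerases had a median log2 fold change of 0.74 over 7 members, all above 0. Prim2, the large subunit of primase, stood at 6.80, 9.597 and 9.644 CPM in control and 22.8, 11.1 and 22.2 CPM in mutant libraries (1.11 ± 0.31 (SE); edgeR adjusted p = 0.127). It was the only polymerase gene without overlap between groups, and it passed without mutant library 2 (1.37; adjusted p = 0.0201), in DESeq2 (adjusted p = 0.0239) and in limma voom (adjusted p = 0.032). Pola2, the accessory subunit of the priming polymerase alpha, stood at 13.8, 28.3 and 26.5 CPM in control and 47.2, 27.1 and 40.5 CPM in mutant libraries (0.74 ± 0.31 (SE); edgeR adjusted p = 0.287). Pola1 and Prim1, its partners, had log2 fold changes of 0.80 and 1.17. The leading strand polymerase genes Pole and Pole2 had 0.69 and 0.68. Pold1, the catalytic subunit of the lagging strand polymerase, was among the 3 smallest changes of all members, 0.41 ± 0.37 (SE), with 26.3, 37.4 and 51.4 CPM in control and 64.0, 26.6 and 61.8 CPM in mutant libraries. Its sign turned with the crystallin share as a covariate, to -0.0583.

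The clamp, its loader and the enzymes that finish Okazaki fragments had a median log2 fold change of 0.83 over 11 members, 10 of them above 0. Rfc1, the large subunit of the clamp loader, was the only member below 0: it stood at 55.0, 61.3 and 74.4 CPM in control and 64.1, 60.8 and 60.5 CPM in mutant libraries, with -0.041 ± 0.15 (SE) as log2 fold change (edgeR adjusted p = 0.92). Its sign turned without control library 3, to 0.0855. The smaller loader subunits had log2 fold changes of 0.60 for Rfc2, 0.45 for Rfc3, 0.69 for Rfc4 and 0.83 for Rfc5. Rfc2 stood at 67.7, 90.3 and 89.1 CPM in control and 135.9, 99.1 and 139.9 CPM in mutant libraries (SE 0.18; edgeR adjusted p = 0.145), with no overlap. Whether Rfc1 and the other subunits differ in their change was not tested. Rfc3 was another of the 3 smallest changes, with 28.7, 39.6 and 36.7 CPM in control and 57.2, 38.7 and 47.2 CPM in mutant libraries.

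Rpa2, a subunit of the complex that coats single-stranded DNA, stood at 30.4, 43.7 and 45.7 CPM in control and 90.9, 50.8 and 94.4 CPM in mutant libraries. Its groups did not overlap, and the mutant group was higher by 0.98 ± 0.26 (SE) in log2 (edgeR adjusted p = 0.114). Rpa1 of the same complex had 0.60. Pcna, the sliding clamp and a common stain for cycling cells, had 1.16, and its lowest mutant value of 56.8 CPM was level with its highest control value of 56.7 CPM. Rpa2 and Pcna passed in DESeq2 (adjusted p = 0.0115 and 0.0354), in limma voom (0.024 and 0.0493) and in the covariate fit (0.035 and 0.0215). Fen1, which trims flaps, Lig1, which seals nicks, and the exonuclease gene Exo1 had log2 fold changes of 1.04, 1.03 and 1.41. Exo1 had the widest error of all members, and control library 1 was 2.39 lower on the log2 scale than the mean of controls 2 and 3.

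Among genes of deoxynucleotide supply, Rrm2 had the second largest log2 fold change of all members. Rrm2, the regulated subunit of ribonucleotide reductase, stood at 17.6, 74.0 and 71.2 CPM in control and 207.9, 98.6 and 208.3 CPM in mutant libraries, 1.66 ± 0.53 (SE; edgeR adjusted p = 0.184). All 3 mutant libraries lay above the controls, although mutant library 2 had less than the other mutant libraries. Limma voom called it (adjusted p = 0.0492) and DESeq2 did not (adjusted p = 0.129). Its partner Rrm1 had a log2 fold change of 0.70 with overlapping groups. Dut, which keeps uracil out of DNA, stood at 28.8, 61.7 and 58.1 CPM in control and 92.7, 62.3 and 111.5 CPM in mutant libraries (0.84 ± 0.32 (SE); edgeR adjusted p = 0.251). Mutant library 2 and control library 2 were nearly equal for Dut. Tk1, the thymidine kinase of S phase, and Tyms, thymidylate synthase, had 1.24 and 0.72.

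Genes that rebuild chromatin behind the fork had a median log2 fold change of 0.85 over 5 members. Dnmt1, which copies DNA methylation to the new strand, stood at 39.7, 54.3 and 57.2 CPM in control and 117.4, 63.3 and 90.9 CPM in mutant libraries (0.85 ± 0.24 (SE); edgeR adjusted p = 0.13). Uhrf1, which guides Dnmt1 to such sites, stood at 32.3, 69.9 and 94.1 CPM in control and 182.4, 94.4 and 152.2 CPM in mutant libraries (1.13 ± 0.39 (SE); edgeR adjusted p = 0.218). Neither gene overlapped between groups, but for Uhrf1 the lowest mutant and the highest control value were all but equal. Both were called by DESeq2 (adjusted p = 0.0245 and 0.0307) and by limma voom (0.0312 and 0.0433). Chaf1a and Chaf1b, subunits of the factor that deposits new histones, had log2 fold changes of 0.53 and 1.37. Slbp, which binds the ends of histone mRNAs, had 0.73.

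The genes that control entry to S phase had the highest median log2 fold change of the 7 role groups, 1.22 over 4 members. E2f1, the E2F factor best known for switching on S phase genes, stood at 12.0, 18.9 and 19.6 CPM in control and 33.8, 29.6 and 45.8 CPM in mutant libraries. The groups were apart, with the lowest mutant value 1.51 times the highest control value. Its log2 fold change of 1.11 ± 0.25 (SE) did not pass in edgeR (adjusted p = 0.0658) but passed in DESeq2 (0.00218), in limma voom (0.0216), with no filter on low counts (0.0366), in the covariate fit (0.0194) and without mutant library 2 (0.0384). E2f1 overlaps Necab3 in the RefSeq annotation, and the strand setting of the counts is not given in the sources used here. Ccne1, the cyclin that activates Cdk2 at the start of S phase, stood at 11.1, 30.01 and 29.99 CPM in control and 68.7, 33.3 and 77.5 CPM in mutant libraries (1.34 ± 0.44 (SE); edgeR adjusted p = 0.192). Ccne2, the other E-type cyclin, had the third largest change of all members, 1.48 ± 0.58 (SE), with 1.27, 6.14 and 5.82 CPM in control and 13.7, 6.52 and 16.8 CPM in mutant libraries. Both cyclins had mutant library 2 just above the controls. E2f2 had 0.57 with overlapping groups.

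**Figure D3:**
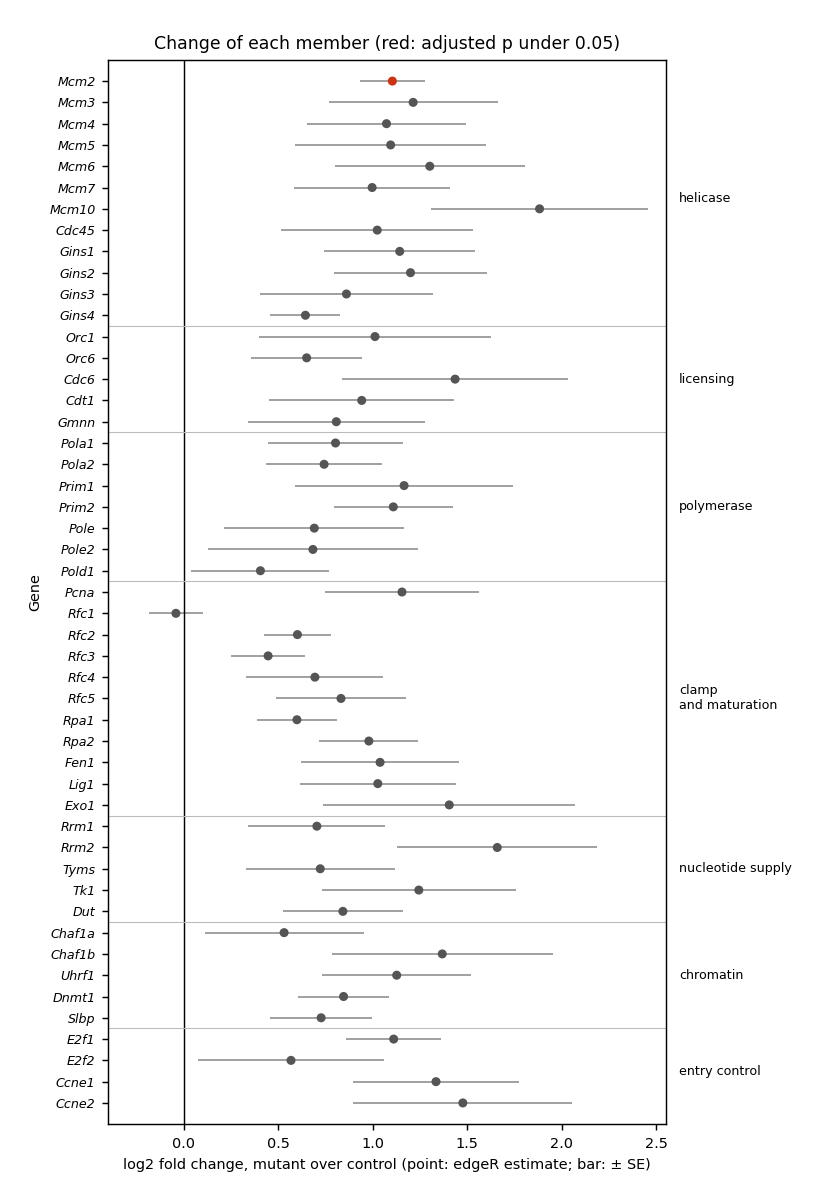
Log2 fold change of mutant over control libraries for each of the 49 genes (points, edgeR estimate) with its SE (bars), by role. Mcm2, in red, passed an adjusted p of 0.05, and Rfc1 is the only point below 0.

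Few members had a gap between groups that was wide against their level. The lowest mutant library was at least 1.2 times the highest control library for 4 of 49 members, Mcm2, Mcm10, E2f1 and Rrm2, against 4.18% of all tested genes. A log2 fold change of at least 1 was found for 24 of 49 members and 643 of 12257 tested genes. Of the members, 20 overlap another gene in the RefSeq annotation and 11 overlap a tested one, and the kit does not mark strand. Those 11 include E2f1, Ccne2, Mcm7, Gins2 and Fen1, whose counts may hold reads of their neighbours.

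Other genes of replication and its repair, from a list of 51 that holds no member, also stood mostly above 0. Of the 51, 48 had log2 fold changes above 0, with a median of 0.57, and 14 had mutant libraries all above control libraries (11.4% of all tested genes). None was called by edgeR, and 12 had an unadjusted p under 0.05 with a higher level (7.92% of all tested genes). Mcm8, a helicase of recombination repair, had 1.34 ± 0.36 (SE; edgeR adjusted p = 0.11), and Clspn, which links the fork to the checkpoint, 1.54 ± 0.42 (SE; 0.115). Without mutant library 2 Mcm8 passed.

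Genes of mitosis, the next phase of the same cycle, stood above 0 in log2 fold change for 32 of 32 (median 0.71), none called by edgeR and 4 with an unadjusted p under 0.05 and a higher level (7.92% of all tested genes). Mutant libraries were all above control libraries for 2 of the 32 and for 18 of the 49 replication genes, where 11.4% of all tested genes were so placed, and the difference between the lists was not tested. The median log2(CPM + 0.5) of mitosis genes was 3.92, 5.18 and 5.57 in control and 6.17, 4.92 and 5.81 in mutant libraries, so mutant library 2 lay below control libraries 2 and 3. For replication genes the same median was 3.99, 5.01 and 5.22 in control and 5.96, 5.08 and 5.93 in mutant libraries. Nuf2, a kinetochore gene, had the largest difference of the mitosis list, 1.42 ± 0.45 (SE; edgeR adjusted p = 0.176).

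Regulators of G1 and cell cycle exit moved in both directions. Of 26 tested genes of this list 1 fell (1.08% of all tested genes were called lower) and 1 rose, and the median log2 fold change was 0.17. Cdkn1c, the cyclin-dependent kinase inhibitor p57 of cells that leave the cycle, stood at 2572, 2240 and 2132 CPM in control and 908.2, 989.1 and 1190 CPM in mutant libraries (-1.17 ± 0.17 (SE); edgeR adjusted p = 0.0121). Mutant library 2 shared the low level of Cdkn1c with the other mutant libraries, whereas its replication genes stood near control libraries 2 and 3. The Cdkn1c call was lost without control library 2 or mutant library 1 (adjusted p up to 0.0841) and with the replicate block (0.0882). Cdkn2b, which encodes the inhibitor p15 of Cdk4 and Cdk6, rose from 0.150, 0.486 and 0.277 CPM to 5.84, 1.40 and 6.32 CPM (3.85 ± 0.74 (SE); edgeR adjusted p = 0.0363). Among the fits that left out a library it was called only without mutant library 2, and the replicate block also ended its call (adjusted p = 0.137). Among genes that did not pass, Tfdp2, a partner of E2F factors, had 0.90, Cdkn1a, the inhibitor p21, 1.03, Rbl1, a relative of the retinoblastoma protein, 0.79, and Cdk2 1.22.

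**Figure D4:**
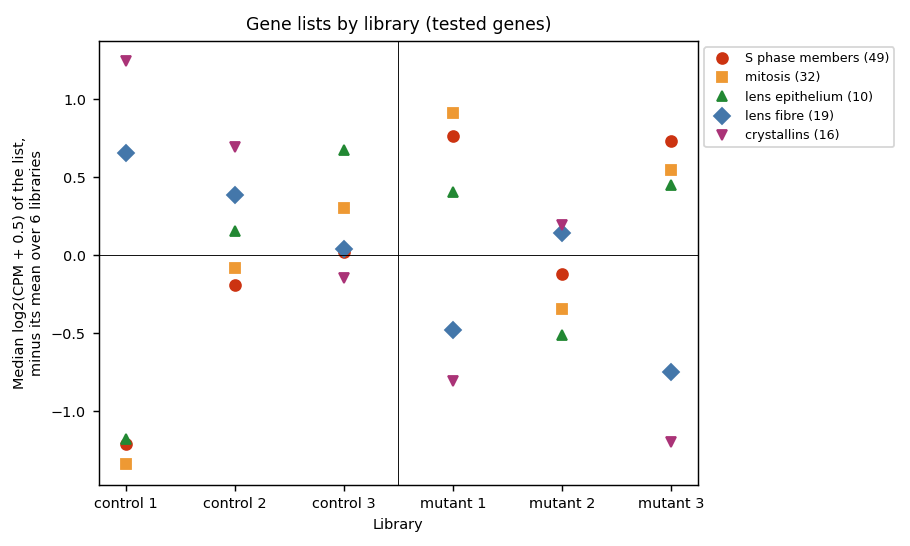
Median log2(CPM + 0.5) over the tested genes of 5 lists in each library, minus the list's mean over the 6 libraries; 1 point per list and library, and the vertical line parts the groups. Replication and mitosis genes are low in control 1 and mutant 2 within their groups, where crystallins and lens fibre genes are high.

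Markers of the cells in the sample also differed between libraries and are given as measured. Lens fibre markers had a median log2(CPM + 0.5) of 8.84, 8.57 and 8.22 in control and 7.70, 8.33 and 7.43 in mutant libraries, and their sum ran from 13300 to 21470 CPM in control and from 6994 to 13070 CPM in mutant libraries. Of 19 tested fibre markers 3 fell (Bfsp2, Gata3 and Grifin), where 1.08% of all tested genes were called lower, and 17 had log2 fold changes below 0. The Bfsp2 call held in each fit with 1 library left out, the Gata3 call was lost without control library 2 or mutant library 3 (adjusted p up to 0.0595), and the Grifin call without control library 2, mutant library 1 or mutant library 3 (up to 0.0816) and with the replicate block (0.0757). Lens epithelium markers had a median of 5.56, 6.90 and 7.42 in control and 7.15, 6.23 and 7.19 in mutant libraries, lowest in control library 1 and, among mutant libraries, in mutant library 2, as the replication genes were. The sum of these markers was instead highest in those libraries within each group. It was 2584, 2381 and 2439 CPM in control and 2439, 2805 and 2307 CPM in mutant libraries. The largest part of this sum came from 1 gene, Sfrp1, at 2022, 1413 and 1200 CPM in control and 1269, 1897 and 1161 CPM in mutant libraries. The order of the sums therefore leans on Sfrp1 and does not describe the list as a whole. Of the 10 epithelium markers 7 had log2 fold changes below 0, and Mab21l1 alone was called (1.26 ± 0.13 (SE); edgeR adjusted p = 0.00196). Crystallins, all 16 tested, had log2 fold changes below 0, with Crybb2 called lower, a call lost without control library 2, control library 3 or mutant library 3 (adjusted p up to 0.073). The part of fibre and epithelial content in the replication gene result was not tested, and the covariate fit above does not measure it.

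Markers of most cell types from outside the lens had low levels. The sum of 8 macrophage markers was 9.79, 4.07 and 1.16 CPM in control and 26.6, 3.30 and 29.3 CPM in mutant libraries, high in the same mutant libraries as the replication genes, but control library 1, where those genes were lowest, had the most of the controls. All 5 tested macrophage markers had log2 fold changes above 0, and none was called by edgeR (3 at an unadjusted p under 0.05). Sums over mesenchyme markers lay between 3.66 and 17.7 CPM in control and 5.36 and 10.1 CPM in mutant libraries, over 7 surface ectoderm and cornea markers between 0.665 and 2.37 CPM and 2.03 and 8.39 CPM. Endothelium markers summed to 34.2 to 45.3 CPM in control and 23.2 to 56.6 CPM in mutant libraries, most of it from Tek, and blood markers to 52.5 to 159.1 CPM and 70.3 to 270.3 CPM, nearly all from the embryonic globin Hbb-y, with Hbb-b1, Hbb-b2, Hba-a1 and Hba-a2 at 0 counts. Retina and pigment epithelium markers summed to 4.10 to 7.77 CPM in control and 2.67 to 4.21 CPM in mutant libraries. The part of these cells in the result was not tested.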

How the data were processed

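RNA of 6 libraries was amplified with a SMART-seq kit, without molecular identifiers, per the labels' protocols. Tools listed in the submitters' processing notes, with no role stated, are TopHat, Cufflinks, DESeq and bcl2fastq 1.8.4, and the build is mm9. For counter, annotation and strand the setting is not given in the sources used here. Counts were deposited unnormalized by gene symbol, equal in the series table and the single files (0 differing). Their deposited table of the comparison gives log2 fold changes, p-values, a test score and a mean signal of scaled counts.

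Genes passing filterByExpr (minimum count 10, total 15) were scaled by TMM and tested in edgeR 4.0.16 (R 4.3.3) by the robust quasi-likelihood test, with Benjamini-Hochberg adjustment over all 12257 genes and a threshold of 0.05. SEs were derived from the F statistic. The procedure was tested on simulated data. Alternatives included DESeq2 1.42.0 and limma voom 3.58.1. Counts of replicates in a group varied well beyond sampling error (chi-square over degrees of freedom 24.1 to 115).

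The members and lists were chosen with earlier results of these data known. Per-library values are given for the 2 members of lowest p in each role group and for the 3 largest and 3 smallest changes, and for Mcm6 and Pcna, chosen after their values were seen. Other lists give up to 3 genes of lowest p (6 for cell cycle exit). Promoters shown are the 3 of lowest p with an upstream E2F octamer and the first without any; requiring the octamer upstream of the start was decided after values were seen. Promoter coordinates are of GRCm38.p6, not of mm9. 1 list gene (Pclaf) was found by an older symbol. One gene that the rule names is not reported here.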

Additional observations from a re-analysis of the deposited data

How the results depend on the processing

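The positive median of the members held under every alternative run, between 0.55 (crystallin share as a covariate) and 1.22, while calls depended on the test and on single libraries. Genes called over the genome numbered 272, against 821 with DESeq2, 808 with limma voom, 798 with the crystallin covariate and 122 with the replicate block, and between 91 and 479 when 1 library was left out. Members called higher numbered 1, against 2 with no filter, 12 with DESeq2, 12 with limma voom, 6 with the crystallin covariate, 0 with the replicate block and between 0 and 8 when 1 library was left out. Under the replicate block, 27 members had an unadjusted p under 0.05 with a higher level. The share of all tested genes was not counted for that fit, so this number cannot be weighed against it. The labels state no pairing by replicate number. The correlations of same-numbered deviations were -0.331, -0.183 and 0.246, and control libraries matched best with mutant libraries 2, 3 and 1. With 3 libraries in a group, these values cannot settle whether libraries were paired. DESeq2 size factors, TMM without crystallin genes and a filter of 5 CPM in 3 libraries (which dropped Orc1) each called 1 member. Sign turned for Rfc1 without control library 3, with a range of -0.135 to 0.0855 over fits that left out 1 library, and for Pold1 with the crystallin covariate (-0.0583), and the causes were not tested. One count stood for 0.0508 to 0.0825 CPM and PCR copies cannot be told from molecules.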
